A study of Mus musculus with 14 samples.

Results

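Translation initiation factors were followed as the 55 genes of the deposited count table, out of 23412, whose symbols begin with Eif1 to Eif6, leaving out the Eif4ebp genes and Eif2s3y. Of these, 51 carry current factor symbols in RefSeq. The other 4, Eif2c1 to Eif2c4, are older symbols of the Argonaute genes Ago1 to Ago4, which encode small-RNA-binding silencing proteins and no initiation factor, so they are described apart. By symbol and role the members fall into eIF1 and eIF1A (5 genes), eIF2 and related tRNA-binding factors (5), eIF2B (5), the eIF2 kinases (4), eIF3 (14), eIF4 (13), eIF5 and eIF6 (5) and the Argonaute genes (4).

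The study measured RNA and ribosome footprints in the cortex of mice lacking Fmr1, the gene for the RNA-binding protein FMRP whose loss causes fragile X syndrome. Both groups are labelled as carrying floxed Rpl22 and a CamK Cre (Rpl22flox/flox;CamKCre+), an arrangement made to tag ribosomes in Cre-expressing cells. Control mice have that genotype alone and knockout (KO) mice also have Fmr1X-Y. The protocol in the labels takes total RNA and RNase I-digested monosomes from brain lysates, so both assays describe the whole lysate. Ages are not given in the sources used here. RNA came from 4 control mice (numbers 1, 3, 6 and 8) and 4 KO mice (2, 4, 5 and 7). Footprints came from 3 control mice (1, 3 and 9) and 3 KO mice (2, 4 and 10), so mice 1 to 4 gave both assays. In bulk tissue, fewer cells of a type and less RNA per cell cannot be told apart.

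Assigned counts ranged from 8847547 to 11371851 per RNA library and from 4124065 to 6033030 per footprint library. Members took 0.656 to 0.719% of the RNA counts and 0.559 to 0.564% of the footprint counts. Fmr1 itself fell from 83 to 21.7 CPM (counts scaled to library size) in RNA and from 114 to 7.46 CPM in footprints. The RNA libraries were less alike than the footprint libraries, with a fitted common coefficient of variation between mice of 0.077 beside 0.021. Footprint p-values thus rest on a very small spread between mice. Within a group, the chi-square of gene counts per degree of freedom, which also grows with depth, was 1.15 to 1.42 between footprint libraries. It was 1.99 to 11.8 between the deeper control RNA libraries, where mouse 8 stood farthest from mice 1 and 3. It was 5.64 to 6.02 between KO mouse 5 and the other KO RNA libraries, which differed from each other by only 1.18 to 1.32. Summed markers of excitatory neurons were at 2050 to 2330 CPM of RNA in controls and 2633 to 2929 in KO, and 4390 to 4496 against 4137 to 4262 CPM of footprints, and 2 of the 5 genes were called higher in each assay and 1 lower in footprints. Markers of the hypothalamus, a tissue outside the labelled cortex, were at 31.3 to 61.3 CPM of RNA in controls and 12.8 to 18.7 in KO, and at 89.4 to 97.7 against 32.1 to 34.6 CPM of footprints, with 3 of 4 genes called lower in RNA and 4 of 4 in footprints. Oligodendrocyte markers were at 4311 to 4795 CPM of RNA in controls and 3711 to 4072 in KO, with 1 of 5 genes called lower, and overlapped in footprints, with 1 gene called higher and 2 lower. The other lists overlapped in RNA. In footprints, astrocyte markers were lower in KO, at 1635 to 1678 against 1520 to 1538 CPM, with 2 of 5 genes called lower in each assay. Inhibitory-neuron markers were at 1625 to 1671 CPM of footprints in controls and 1698 to 1724 in KO (3 of 6 genes called higher, 1 lower), endothelial markers at 152 to 158 and 141 to 150.3, striatal markers at 419 to 443 and 383 to 417, and choroid plexus markers at 5.2 to 8.52 and 3.09 to 5.16, the last 3 lists with 1 gene each called lower. Microglial and red blood cell markers overlapped between the groups in both assays, and no gene of theirs was called. The part of these markers in the members' values was not tested.

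Initiation begins when eIF4F, made of the cap-binding protein eIF4E, the scaffold eIF4G and the helicase eIF4A, engages the capped end of an mRNA. The small ribosomal subunit arrives with eIF1, eIF1A, eIF3, eIF5 and a complex of eIF2, GTP and initiator tRNA, and scans to the start codon. eIF5 then drives GTP hydrolysis by eIF2, eIF5B joins the large subunit, and eIF2B recharges eIF2 unless an eIF2 kinase has phosphorylated it. In neurons this machinery is known for setting local and activity-dependent protein synthesis. FMRP has been linked to it through CYFIP1, which binds eIF4E.

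In the comparison of KO with control mice, footprints of 6 members fell: Eif5b, Eif4g1, Eif3a, Eif4g3, Eif5 and Eif4b. Footprints of 10 members rose: Eif1ad, Eif2ak1, Eif3f, Eif5a2, Eif3k, Eif4g2, Eif3m, Eif3l, Eif1b and Eif4a2. These were called at an adjusted p under 0.05 in edgeR's quasi-likelihood test, adjusted over all genes. Thus 16 of the 51 members tested in footprints were called, or 31.4%, beside 25.7% of all 12158 genes (12% called higher and 13.7% lower). The share is close to that of all genes. Plain library sizes called 22 members (16 higher, 6 lower) and 28.3% of all genes, and 1 fit over all 14 libraries called 9 and 12.6%. The members' median log2 fold change in footprints was 0.028 (0.02 to 0.049 without each mouse in turn), beside 0.0061 over all genes. With plain library sizes the medians were 0.087 and 0.066. Changes ran from -0.60 ± 0.053 (standard error, SE) for Eif5b to 0.47 ± 0.20 for Eif2s2, which was not called.

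In RNA, 1 of 52 members tested was called, Eif3b, which rose. That is 1.92%, beside 7.51% of all 13507 genes. At an unadjusted p under 0.05 there were 14 members, a count for which no all-gene share is given. The members' median log2 fold change in RNA was 0.0052. Without the library of KO mouse 5, 6 members were called in RNA (Eif3b, Eif3h, Eif2b2 and Eif2c3 higher, Eif4a2 and Eif2s3x lower), beside 10.7% of all genes. Without control mouse 8, 4 were (Eif3b, Eif3h and Eif4g2 higher, Eif4a2 lower), beside 13.2% of all genes. Among mice 1 to 4 alone, 18 members were called, 7 higher and 11 lower, beside 24.2% of all genes. Among mice 5 to 8, whose library titles share a prefix, only Eif3b was, beside 0.423% of all genes.

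Translational efficiency (TE), the footprint change relative to the RNA change, was tested as an interaction over all 14 libraries. It was lower in KO for Eif5b, Eif3a, Eif3b, Eif4g3, Eif2c2 and Eif5 and higher for Eif3k and Eif4a2. These 8 of 51 members are 15.7%, beside 7.44% of all 12145 genes tested (3.22% called higher and 4.22% lower). The members' median log2 TE change was 0.069 (0.035 to 0.082 without each mouse in turn), beside -0.011 over all genes. Plain library sizes gave 5 higher and 4 lower, with 8.18% of all genes called. Limma voom called 15 members and 15.7% of all genes, and RNA summed over near-coinciding libraries left 5 members and 4.21%. Calls for Eif3a, Eif3b and Eif3k held without each mouse in turn. The count ranged from 3 without mouse 4 (those genes alone) to 13 without mouse 5, while 3.4% and 10.1% of all genes were called. Without mouse 2 the calls were those genes and Eif5b, beside 3.05% of all genes, and without mouse 10 they were those, Eif4g3 and Eif5b, beside 4.64%.

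**Figure D1:**
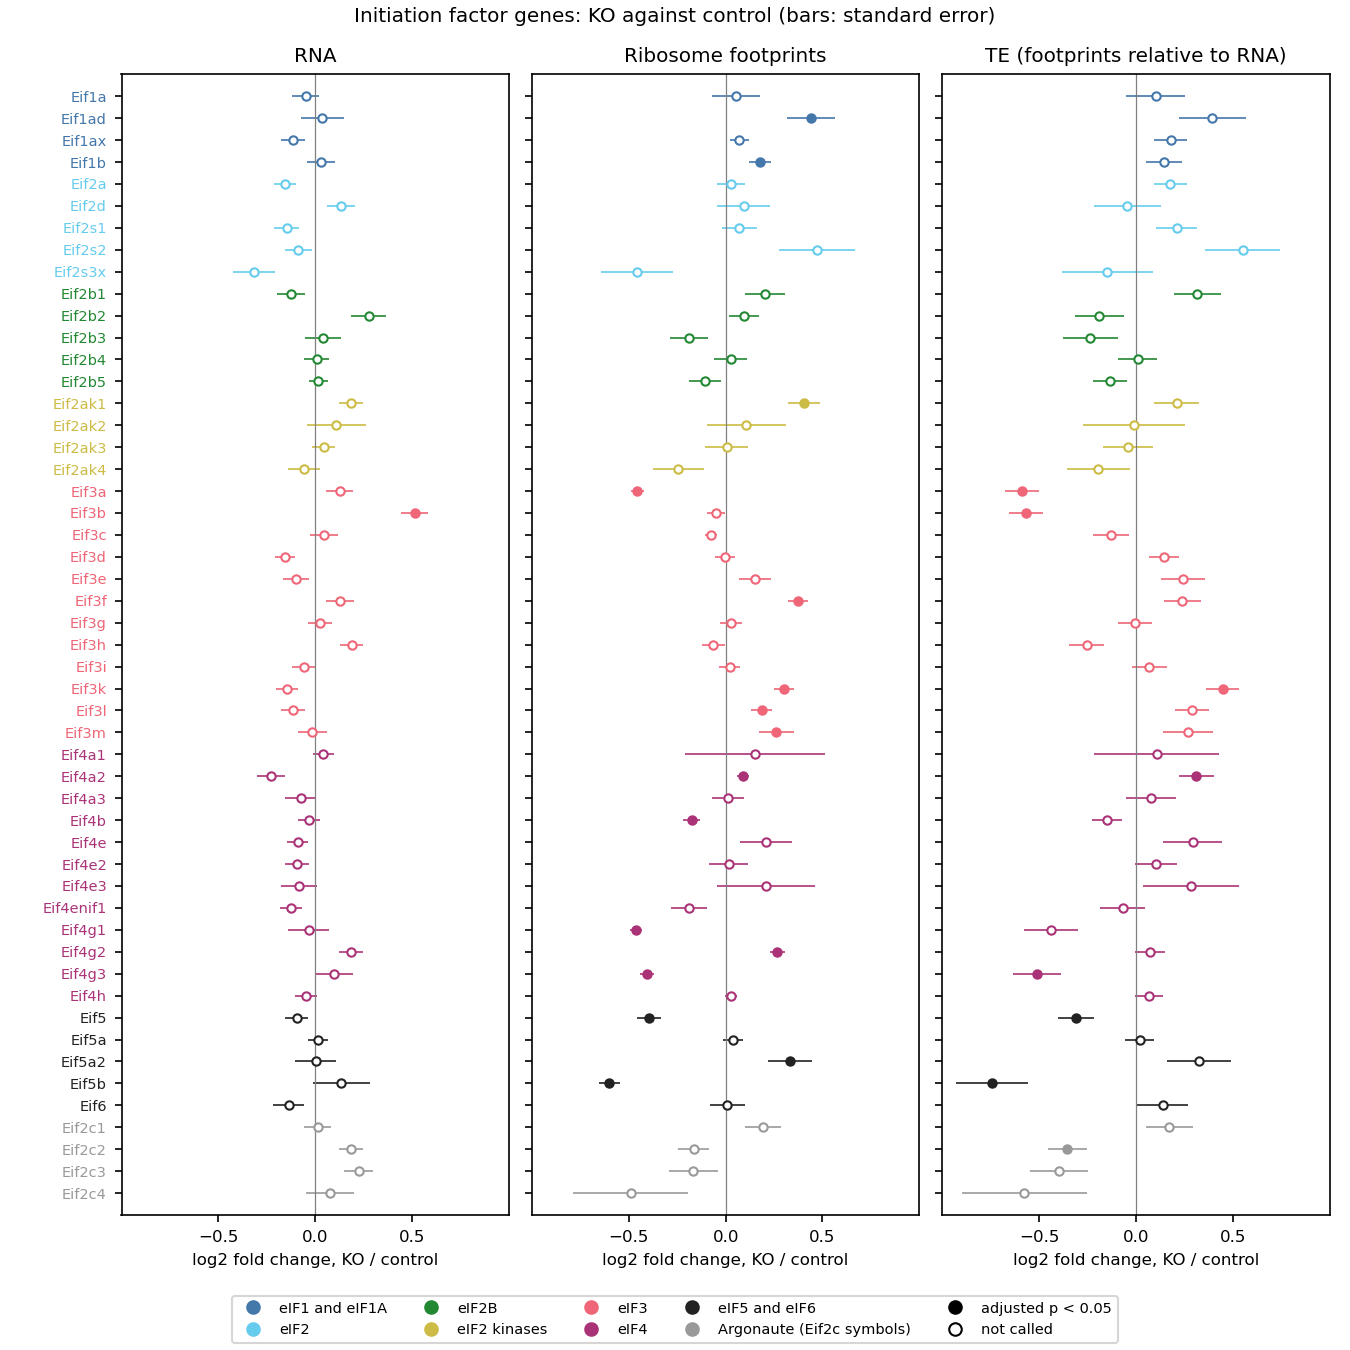
Log2 fold change of KO over control for each member tested in all 3 comparisons, in RNA (left), ribosome footprints (middle) and TE (right). Colours give the complex, bars the standard error, and filled points an adjusted p under 0.05 (edgeR). Filled points lie on both sides of 0 in footprints and in TE, whereas RNA has 1, Eif3b.

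**Figure D2:**
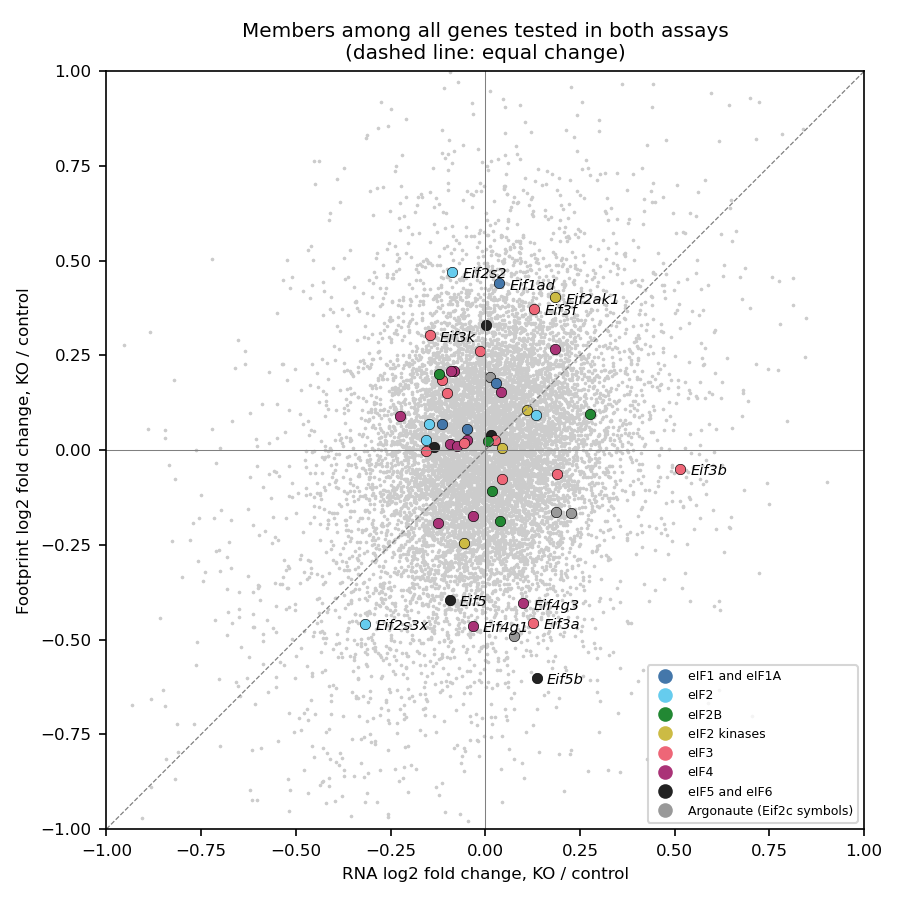
Footprint log2 fold change (y axis) against RNA log2 fold change (x axis) for 12145 genes tested in both assays (grey) and the members (coloured by complex), with 116 genes beyond the axes not drawn. The dashed line marks equal change. Eif5b, Eif3a and Eif4g3 lie right of 0 and far below it in footprints, and Eif3b lies at the right with footprints near 0.

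Among the eIF4 genes, the large scaffold subunits and the divergent relative Eif4g2 went opposite ways in footprints. Of the 12 eIF4 genes tested, 2 rose and 3 fell, beside 25.7% of all genes called. Eif4g1, the main eIF4G scaffold, had footprints of 512, 524 and 506 CPM in control mice 1, 3 and 9 and of 372, 362 and 382 CPM in KO mice 2, 4 and 10. All KO values lay below all control values. The log2 fold change was -0.46 ± 0.031 (adjusted p = 9.98e-24, edgeR), and it was -0.53 to -0.40 within the 3 pairs of libraries that share a title prefix. Its RNA measured 566, 561, 438 and 374 CPM in control mice 1, 3, 6 and 8 and 496, 488, 441 and 469.8 CPM in KO mice 2, 4, 5 and 7. Control mice 1 and 3 were above every KO mouse and control mice 6 and 8 below them all, so the RNA groups overlapped (log2 fold change -0.033 ± 0.11, adjusted p = 0.886, edgeR). The TE change of Eif4g1 was -0.44 ± 0.14 and missed the threshold (adjusted p = 0.055, edgeR). With the mouse as a replicate block over mice 1 to 4, it was -0.31 (adjusted p = 4.22e-06, edgeR). It was also called with a title-prefix block, DESeq2 or voom, without mouse 1, 3, 5 or 8, and in mice 1 to 4 without the block, and not in the remaining alternatives. In mice 1 to 4 Eif4g1 RNA was lower in KO, at -0.19 on the log2 scale.

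Eif4g3, the other eIF4G scaffold, had 339.7, 346 and 351 CPM of footprints in controls and 262, 262 and 260.1 CPM in KO. The KO values nearly coincided and lay below every control (log2 fold change -0.40 ± 0.036, adjusted p = 5.53e-17, edgeR). RNA of Eif4g3 was at 344, 335, 269 and 238 CPM in control mice and 325, 323, 311 and 311 CPM in KO, with the control mice spread on both sides of the KO mice. Its TE change was -0.51 ± 0.12 (adjusted p = 0.0132, edgeR), and -0.34 with the replicate block over mice 1 to 4. Without mouse 2 or without mouse 4 the TE call was lost (adjusted p = 0.0739 and 0.0666, edgeR). Eif4g2, a relative that lacks the eIF4E-binding region, rose in footprints from 234 ± 5.39 to 280.2 ± 8.66 CPM (SD, n = 3; log2 fold change 0.27 ± 0.039, adjusted p = 2.1e-08, edgeR). Its RNA was at 883 CPM in control mice and 1003 CPM in KO without overlap (adjusted p = 0.0771, edgeR), and its TE change was 0.072 ± 0.078.

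The helicase subunit Eif4a2, the abundant eIF4A of brain, had differences of opposite sign in the assays, of which the footprint one was called. RNA of Eif4a2 was at 1076, 1117, 1030.0 and 883 CPM in control mice and 842, 874, 955 and 839.6 CPM in KO. Control mouse 8 lay among the KO mice, and the RNA difference was not called (log2 fold change -0.23 ± 0.071, adjusted p = 0.0683, edgeR), although it was without mouse 8 (-0.29, adjusted p = 0.00354, edgeR) and without mouse 5 (-0.27, adjusted p = 0.0287, edgeR), as well as in mice 1 to 4 alone and with DESeq2. Footprints of Eif4a2 rose slightly, from 479.7, 494 and 479 CPM in controls to 532, 514 and 503 CPM in KO (log2 fold change 0.09 ± 0.030, adjusted p = 0.0178, edgeR). The groups did not overlap, but this call was lost without mouse 1, 2 or 9, with DESeq2 and in 1 fit over all 14 libraries. Its TE change was 0.31 ± 0.091 (adjusted p = 0.0401, edgeR). That call was lost without each of mice 1, 2, 3, 4, 6, 7, 9 and 10, and with a title-prefix block or RNA of near-coinciding libraries summed. With the replicate block over mice 1 to 4 the change was 0.44 (adjusted p = 2.06e-13, edgeR).

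Eif4b, a cofactor of eIF4A, fell in footprints from 204 ± 5 to 180.4 ± 5.3 CPM (SD, n = 3; log2 fold change -0.17 ± 0.044, adjusted p = 0.00123, edgeR), a call lost in 1 fit over all 14 libraries (adjusted p = 0.0536, edgeR). The similar cofactor Eif4h was at 468 and 476 CPM, a log2 difference of 0.028 ± 0.031 that was not called. The cap-binding genes were not called in any comparison. In footprints Eif4e had a log2 fold change of 0.21 ± 0.13, its relatives Eif4e2 and Eif4e3 had 0.015 ± 0.10 and 0.21 ± 0.25, and Eif4enif1, an eIF4E transporter, had -0.19 ± 0.093. Eif4a3, the helicase of the exon junction complex, was at 51.3 CPM of footprints in controls and 51.6 in KO. Eif4a1 is uncertain, since it had only 5 to 21 footprint counts per library against 1898 to 2641 RNA counts, and whether near-identical copies split its reads was not tested. Eif4e1b is listed at 0 in every library of both assays.

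**Figure D3:**
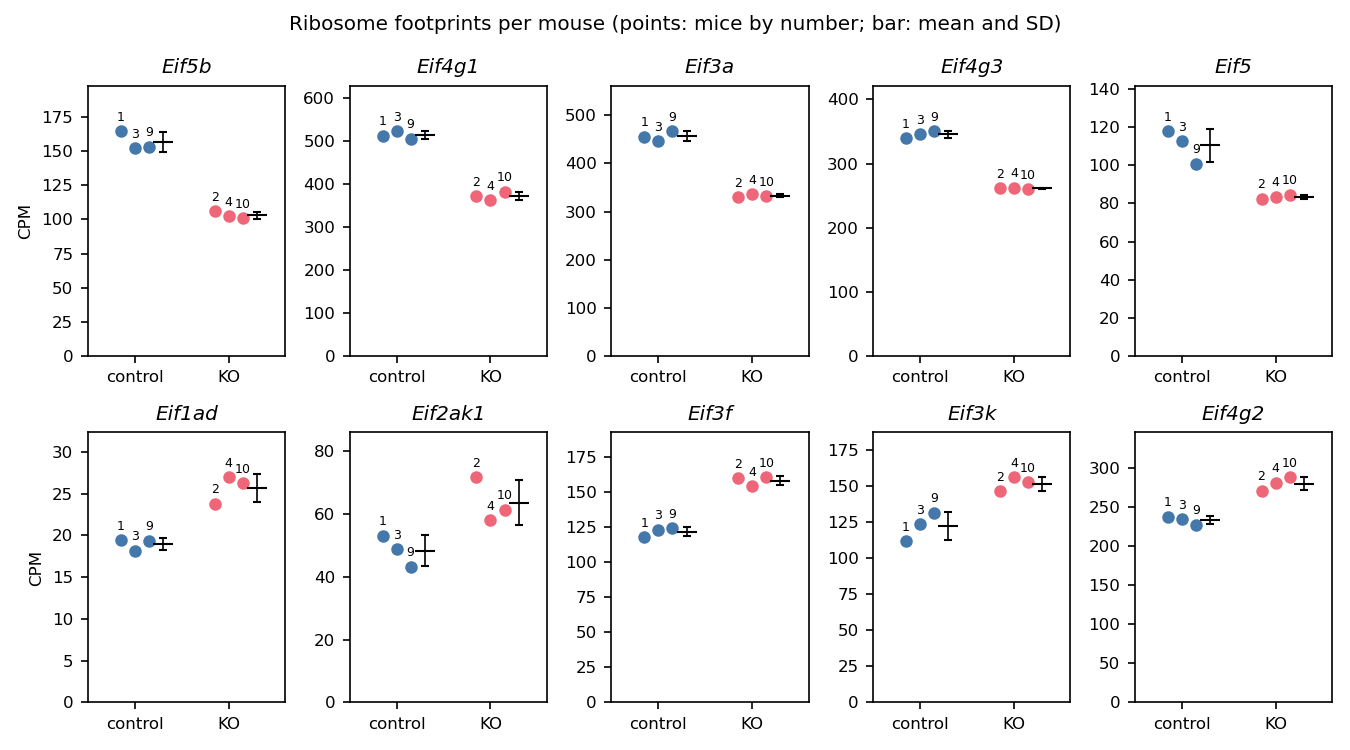
Footprint CPM of the 10 members named in the panels, 1 panel a gene, with control mice 1, 3 and 9 in blue and KO mice 2, 4 and 10 in red. Numbers mark the mice and black bars the mean and SD. In the 5 upper panels every KO mouse is below every control mouse, and in the 5 lower panels every KO mouse is above them.

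The eIF3 complex bridges mRNA and the small subunit, and its members split in footprints. Eif3f, Eif3k, Eif3l and Eif3m rose and Eif3a fell, so 5 of the 12 eIF3 genes tested were called (41.7%, beside 25.7% of all genes). All 5 encode subunits of the octameric core that carries PCI and MPN domains. The other core subunits were not called: Eif3c was at -0.075 ± 0.032 on the log2 scale (called lower without mouse 9), Eif3e at 0.15 ± 0.082 and Eif3h at -0.063 ± 0.058. Neither were Eif3b, Eif3g and Eif3i of the module near the mRNA channel, nor the cap-binding subunit Eif3d. Eif3j1 and Eif3j2, a closely related pair, are listed at 0 in every library.

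Eif3a, the largest subunit, had footprints of 456, 446 and 467 CPM in control mice and 329.8, 336 and 332 CPM in KO. Every KO mouse was below every control (log2 fold change -0.46 ± 0.033, adjusted p = 3.2e-22, edgeR; -0.49 to -0.41 within the prefix pairs). RNA of Eif3a was not called, at 276, 282, 246 and 224 CPM in control mice and 281, 278, 287 and 276 CPM in KO, where KO mice overlapped control mice 1 and 3. In TE the change was -0.59 ± 0.088 (adjusted p = 0.000221, edgeR). Footprints per RNA were 1.65 and 1.58 in control mice 1 and 3 and 1.17 and 1.21 in KO mice 2 and 4, which gave both assays.

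Eif3b, the scaffold of the other module, was the 1 member called in RNA. It rose from 66.2, 70.3, 65.8 and 75.1 CPM in controls to 91.8, 98.1, 109.8 and 96.8 CPM in KO (log2 fold change 0.51 ± 0.069, adjusted p = 0.000817, edgeR). The lowest KO mouse was above the highest control, and mice 1 to 4 and mice 5 to 8 gave 0.49 and 0.55. Its footprints overlapped, at 148, 154 and 153 CPM in control mice and 143, 147 and 149 CPM in KO (log2 fold change -0.05 ± 0.049, adjusted p = 0.507, edgeR). TE of Eif3b was lower, with a log2 change of -0.57 ± 0.089 (adjusted p = 0.000365, edgeR). The lower TE of Eif3b thus came with more RNA, and that of Eif3a with fewer footprints.

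Eif3k, a small peripheral subunit, moved the other way. Its footprints were 112, 123 and 131 CPM in control mice and 146, 156 and 153 CPM in KO, without overlap (log2 fold change 0.30 ± 0.053, adjusted p = 2.03e-06, edgeR). Eif3k RNA measured 116, 112, 119.7 and 126 CPM in control mice and 107, 111, 104 and 106 CPM in KO, with every KO mouse lower, though the difference was not called (-0.15 ± 0.056, adjusted p = 0.124, edgeR). Its TE change was 0.45 ± 0.087 (adjusted p = 0.00257, edgeR). Eif3l, the partner subunit of eIF3k, rose in footprints by 0.19 ± 0.054 (adjusted p = 0.0054, edgeR) and had a TE change of 0.29 ± 0.089 (adjusted p = 0.0518, edgeR). That TE change was called with plain library sizes, DESeq2, the exon columns or voom, and without mouse 5 or 6. Its footprint call was lost without mouse 9 or mouse 10, and with DESeq2 or 1 fit over all 14 libraries.

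Eif3f, an MPN-domain subunit, had 118, 123 and 124 CPM of footprints in controls and 160.0, 154 and 161 CPM in KO. The groups were well apart (log2 fold change 0.37 ± 0.050, adjusted p = 2.24e-09, edgeR; 0.32 to 0.44 within the prefix pairs). RNA of Eif3f was at 87.3, 89.7, 97.7 and 104 CPM in control mice and 99.8, 99, 116 and 100.5 CPM in KO, where mouse 5 stood above the other KO mice and the groups overlapped. TE of Eif3f changed by 0.24 ± 0.10, which was not called (adjusted p = 0.133, edgeR). Eif3m, a PCI-domain subunit, rose in footprints from 40.3 ± 4.8 to 48.4 ± 2.19 CPM (SD, n = 3; adjusted p = 0.0216, edgeR), a call lost without mouse 1, 3, 4 or 10, with DESeq2 and in 1 fit over all 14 libraries. Eif3h RNA was at 80.6 CPM in control mice and 91.9 CPM in KO without overlap, which was not called (adjusted p = 0.0624, edgeR).

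**Figure D4:**
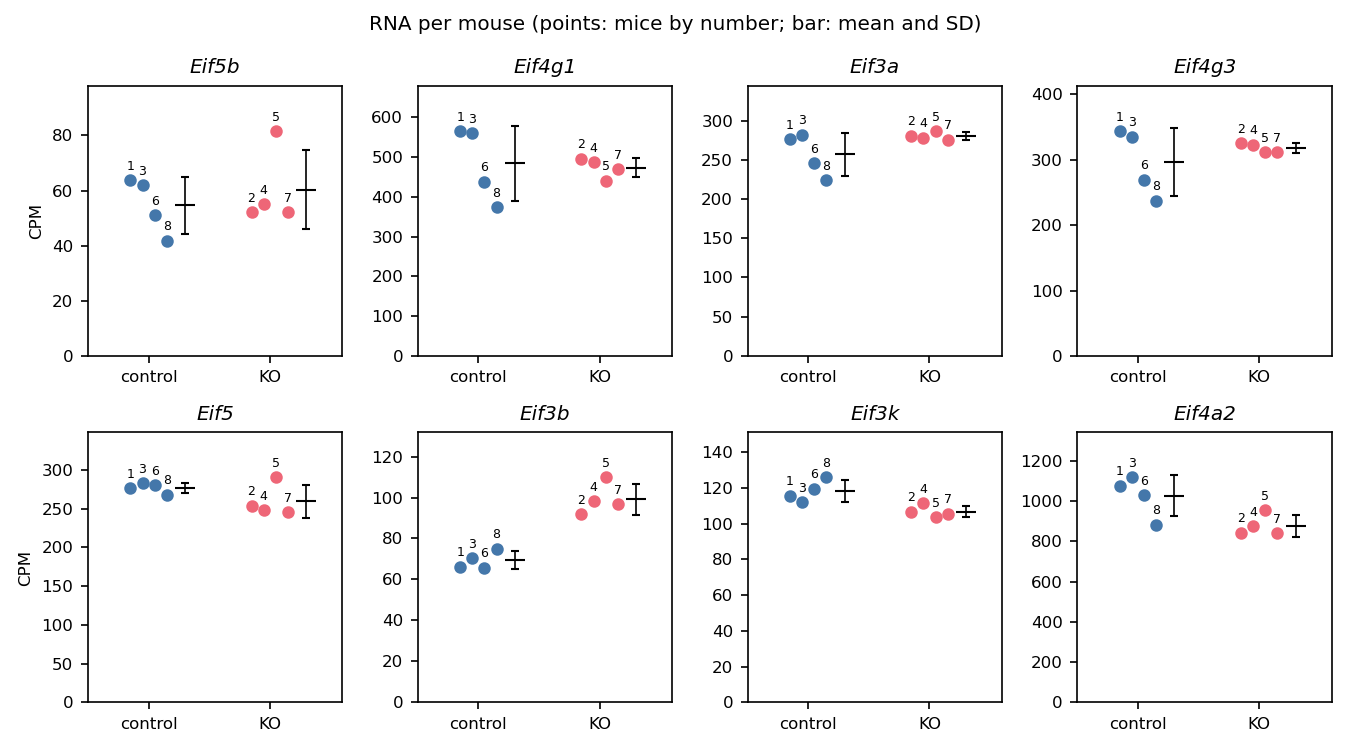
RNA CPM of the 8 members named in the panels, with control mice 1, 3, 6 and 8 in blue and KO mice 2, 4, 5 and 7 in red. Numbers mark the mice and black bars the mean and SD. Eif3b has all KO mice above all controls, whereas control mice 6 and 8 are lower than control mice 1 and 3 for Eif4g1, Eif3a, Eif4g3 and Eif5b, and KO mouse 5 is highest for Eif5b.

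The factors of the last steps, start-codon commitment and subunit joining, held the largest footprint decrease of the list. Of 5 eIF5 and eIF6 genes tested in footprints, 1 rose (Eif5a2, whose role at stalled ribosomes is given below) and 2 fell, beside the same 25.7%. Eif5b, the GTPase that joins the large subunit, had footprints of 165, 152 and 153 CPM in control mice and 106, 102 and 101 CPM in KO. Every KO mouse was below every control, at a mean of 65.7% of the control level (log2 fold change -0.60 ± 0.053, adjusted p = 5.17e-17, edgeR; -0.64 to -0.57 within the prefix pairs). RNA of Eif5b was at 63.7, 61.9, 51 and 41.8 CPM in control mice and 52.3, 55.1, 81.6 and 52.1 CPM in KO. KO mouse 5 was the highest of all and control mouse 8 the lowest, and the RNA difference was not called (log2 fold change 0.14 ± 0.15, adjusted p = 0.628, edgeR). Among mice 1 to 4 alone Eif5b RNA was lower in KO, at -0.22 (adjusted p = 0.0232, edgeR), and among mice 5 to 8 it was 0.52 (adjusted p = 0.145, edgeR). TE of Eif5b fell by 0.74 ± 0.19 on the log2 scale (adjusted p = 0.0158, edgeR). With the replicate block over mice 1 to 4 it was -0.39 (adjusted p = 0.00132, edgeR), and without mouse 4 the call was lost (adjusted p = 0.0558, edgeR).

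Eif5, which activates GTP hydrolysis by eIF2, had 118, 113 and 101 CPM of footprints in controls and 82.5, 83.5 and 84.6 CPM in KO. Control mouse 9 lay closest to the KO mice but above them all (log2 fold change -0.40 ± 0.062, adjusted p = 1.51e-07, edgeR). RNA of Eif5 was at 276, 283, 280.2 and 268 CPM in control mice and 254, 248, 290.4 and 246 CPM in KO, where mouse 5 was above every control, and it was called lower in mice 1 to 4 alone. The TE change of Eif5 was -0.31 ± 0.093 (adjusted p = 0.0423, edgeR), but this call was lost without mouse 1, 2, 3, 4, 6 or 10, and with plain library sizes, no low-count filter, a title-prefix block, the exon columns or RNA of the near-coinciding libraries (KO mice 2, 4 and 7, control mice 1 and 3) summed. Eif5a2, the rarer form of the factor eIF5A that relieves stalled ribosomes, rose in footprints from 23.2 ± 2.85 to 29.7 ± 1.95 CPM (SD, n = 3; adjusted p = 0.022, edgeR), a call lost without mouse 1 or mouse 2, with DESeq2 and in the 14-library fit. The common form Eif5a was at 142 ± 7.62 CPM in control mice and 146 ± 4.2 CPM in KO (adjusted p = 0.63, edgeR). Eif6, which keeps free large subunits from joining, had 44.9 and 45.1 CPM.

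The factors eIF1 and eIF1A open the small subunit for scanning. Of the genes grouped with them by symbol, 2 of 4 tested rose in footprints, beside 12% of all genes called higher. Eif1ad, an eIF1A-domain protein, had 19.4, 18.2 and 19.4 CPM in control mice and 23.8, 26.9 and 26.2 CPM in KO, without overlap (log2 fold change 0.44 ± 0.12, adjusted p = 0.00376, edgeR), a call lost in 1 fit over all 14 libraries (adjusted p = 0.054, edgeR). Its RNA, at 21.1, 20.7, 29.2 and 24.8 CPM in control mice and 22.7, 26.2, 26.4 and 22.8 CPM in KO, overlapped. Eif1b rose in footprints from 102 ± 3.6 to 116 ± 2.97 CPM (SD, n = 3; adjusted p = 0.0122, edgeR), a call lost without mouse 1 or mouse 2, with DESeq2 and in the 14-library fit. The close paralogs Eif1a and Eif1ax were not called in any comparison. Eif1 was not tested in footprints, where it had 1 to 4 counts per library against 248 to 469 RNA counts.

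No gene of eIF2 itself was called in any of the 3 comparisons. Eif2s1, the alpha subunit that the kinases phosphorylate, was at 41.6 ± 2.77 CPM of footprints in controls and 43.6 ± 1.83 CPM in KO (SD, n = 3). The beta subunit Eif2s2 had 7.1, 8.67 and 6.04 CPM of footprints in controls and 10.2, 10.1 and 10.1 CPM in KO, from 30 to 51 counts per library, without overlap (log2 fold change 0.47 ± 0.20, adjusted p = 0.0676, edgeR), and it was called with plain library sizes or without mouse 3. The X-linked gamma subunit Eif2s3x had a lower mean in both assays, below the threshold. Its RNA measured 32.6, 28, 31.7 and 35.8 CPM in control mice and 22.6, 23.9, 32.3 and 24.7 CPM in KO, overlapping through mouse 5 (log2 fold change -0.32 ± 0.11, adjusted p = 0.0912, edgeR). Its footprints were at 12.5, 10.9 and 11 CPM and 9.27, 7.63 and 7.98 CPM, without overlap (log2 fold change -0.46 ± 0.19, adjusted p = 0.0568, edgeR). Eif2s3x was called in RNA without mouse 5 and in footprints with a title-prefix block. The Y-linked copy Eif2s3y, outside the list, was at 51.2 and 50.8 CPM of RNA. Eif2a and Eif2d, which deliver tRNA without eIF2, were at 0.028 ± 0.070 and 0.093 ± 0.14 on the log2 scale in footprints.

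The 5 subunits of eIF2B, the exchange factor that recharges eIF2, were not called in any comparison. Their footprint log2 fold changes ran from -0.19 ± 0.10 for Eif2b3 to 0.20 ± 0.10 for Eif2b1. In RNA, Eif2b2 was at 26.5 ± 0.46 CPM in control mice and 32 ± 4.14 CPM in KO (SD, n = 4; adjusted p = 0.0764, edgeR), and KO mouse 5 lay among the controls. Of the 4 eIF2 kinases, Eif2ak1, the heme-regulated kinase HRI, was called in footprints. It had 53, 48.8 and 43.2 CPM in control mice and 71.6, 57.9 and 61.3 CPM in KO. The KO mice were all higher, mouse 2 most (log2 fold change 0.40 ± 0.082, adjusted p = 5.09e-05, edgeR; 0.25 to 0.51 within the prefix pairs). Eif2ak1 RNA measured 91.3, 90.9, 95.3 and 94 CPM in control mice and 101, 106, 117 and 99.1 CPM in KO, also without overlap but not called (adjusted p = 0.0804, edgeR). PKR (Eif2ak2), PERK (Eif2ak3) and GCN2 (Eif2ak4) had footprint log2 fold changes of 0.11 ± 0.20, 0.005 ± 0.11 and -0.24 ± 0.13, none called.

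Of the Argonaute genes, Eif2c2 (Ago2) was called in TE. Its RNA measured 78.8, 83.2, 76.4 and 81.4 CPM in control mice and 87.9, 85.4, 99.9 and 91.2 CPM in KO, and its footprints were at 56.1, 56.8 and 62.7 CPM and 55.6, 51.6 and 50.2 CPM. KO mice were all higher in RNA and all lower in footprints, with neither difference called (RNA was with the exon columns), and TE changed by -0.35 ± 0.10 (adjusted p = 0.0357, edgeR). That call was lost without each of mice 1, 2, 3, 4, 6, 7, 9 and 10, with plain library sizes, no filter, a title-prefix block or summed RNA, and with the replicate block over mice 1 to 4 (adjusted p = 0.316, edgeR). Without the Argonaute genes, the counts called were 1 of 48 in RNA, 16 of 47 in footprints and 7 of 47 in TE (2.08, 34 and 14.9%, beside 7.51, 25.7 and 7.44% of all genes).

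Known regulators of these factors were read from the same fits. Of 16 tested genes of the eIF4E-binding proteins, mTORC1 and the poly(A)-binding proteins' partners, 4 rose and 3 fell in footprints. Mknk2, an eIF4E kinase, rose by 0.40 ± 0.13 on the log2 scale (adjusted p = 0.018, edgeR), and the binders of poly(A)-binding protein Paip1, Paip2 and Paip2b rose by 0.39, 0.19 and 0.32. Mtor, the kinase of mTORC1, changed by -0.25 ± 0.043 (adjusted p = 2.12e-06, edgeR), Larp1, which binds pyrimidine-rich mRNA starts, by -0.20, and Pdcd4, an eIF4A inhibitor, by -0.15. Pdcd4 was the 1 gene of this list called in RNA, at 94.9 ± 9.14 CPM in control mice and 117 ± 11.1 CPM in KO (SD, n = 4; adjusted p = 0.0345, edgeR). In TE 2 of the 16 were called (12.5%, beside 7.44% of all genes), Paip1 higher (0.38) and Pdcd4 lower (-0.46). Cyfip1 was not called, with 191 ± 5.85 CPM of footprints in controls and 186 ± 6.91 CPM in KO. Eif4ebp2, the main eIF4E-binding protein of brain, was at 13.9 ± 1.6 CPM of footprints in controls and 13 ± 1.11 CPM in KO. Its RNA was at 4.03 ± 0.868 and 6.01 ± 0.648 CPM (adjusted p = 0.0524, edgeR).

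Of the integrated stress response genes, which act when eIF2 is phosphorylated, 0 of 12 were called in RNA by edgeR. At an unadjusted p under 0.05 there were 2, again with no all-gene share given. In footprints 5 of 10 were called. Impact, an inhibitor of GCN2 activation, had 469.8, 463 and 439.7 CPM in control mice and 569, 553 and 550.2 CPM in KO (log2 fold change 0.29 ± 0.030, adjusted p = 1.36e-13, edgeR). Gcn1l1, the ribosome-bound activator of GCN2, had 122, 123 and 125 CPM in control mice and 94.6, 109 and 107 CPM in KO, without overlap (log2 fold change -0.25 ± 0.057, adjusted p = 0.000314, edgeR). Both were called in TE (0.34 and -0.28). The transcription factor Atf4 and its targets Asns and Ddit4 rose in footprints by 0.25, 0.15 and 0.39, with TE changes of 0.054, 0.19 and 0.041 that were not called. RNA of Ddit4 was at 19.2 ± 2.53 CPM in control mice and 24.3 ± 1.81 CPM in KO (SD, n = 4), without overlap and not called (adjusted p = 0.0532, edgeR). The targets Sesn2 and Chac1 had footprint log2 fold changes of -0.41 ± 0.18 and -0.22 ± 0.20, neither called. Ddit3 (CHOP) was at 2.51 and 1.6 CPM of footprints and was not called. Among 6 other helpers of initiation and recycling, Mcts1, a reinitiation factor, rose in footprints (0.43 ± 0.064, adjusted p = 2.79e-08, edgeR) and in TE (0.40). The helicase Ddx3x and the eIF2-binding ATPase Abcf1 fell by 0.15 and 0.31 in footprints. These lists were chosen with earlier results known, so their counts are read against the all-gene shares of 25.7% for footprints, 7.51% for RNA and 7.44% for TE.

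Within control mice, footprint CPM divided by RNA CPM gives each member's level of footprints for its RNA, for which no gene length is needed where both assays count the same region. That region is not given in the sources used here. Eif5b had the highest ratio of the 51 members tested, 2.87, at the 97.9 percentile of all 12145 genes. It was followed by Eif3b at 2.18, Eif2b2 at 1.96, Eif4h at 1.94 and Eif1b at 1.87. The median of all genes was 0.913 and its quartiles 0.59 and 1.32. The lowest were Eif4a1 at 0.0108, Eif2s2 at 0.136, Eif4e3 at 0.229, Eif4e at 0.246 and Eif4g2 at 0.265. Of these, Eif4a1 had only 5 to 21 footprint counts per library, Eif2s2 30 to 51 and Eif4e3 19 to 29. Whether reads shared with near-identical copies were lost was not tested, so a low ratio is not read as low translation. Within complexes the ratios were unequal. In eIF4F, Eif4g1 had 1.06 and Eif4a2 0.472. In eIF3, Eif3a had 1.78 and Eif3e 0.335. The neighbours Eif2b2, Eif4h and Eif1b did not separate. In mice 1 and 3, which gave both assays, the ratios were 1.92 and 1.89 for Eif2b2, 1.9 and 1.81 for Eif4h and 1.96 and 1.86 for Eif1b, whose mean was then the highest of the 3. Using mice 1 and 3 alone multiplied the ratios by 0.844 to 1.16. In KO mice the ratio of Eif5b was 1.71 and that of Eif3b 1.48.

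**Figure D5:**
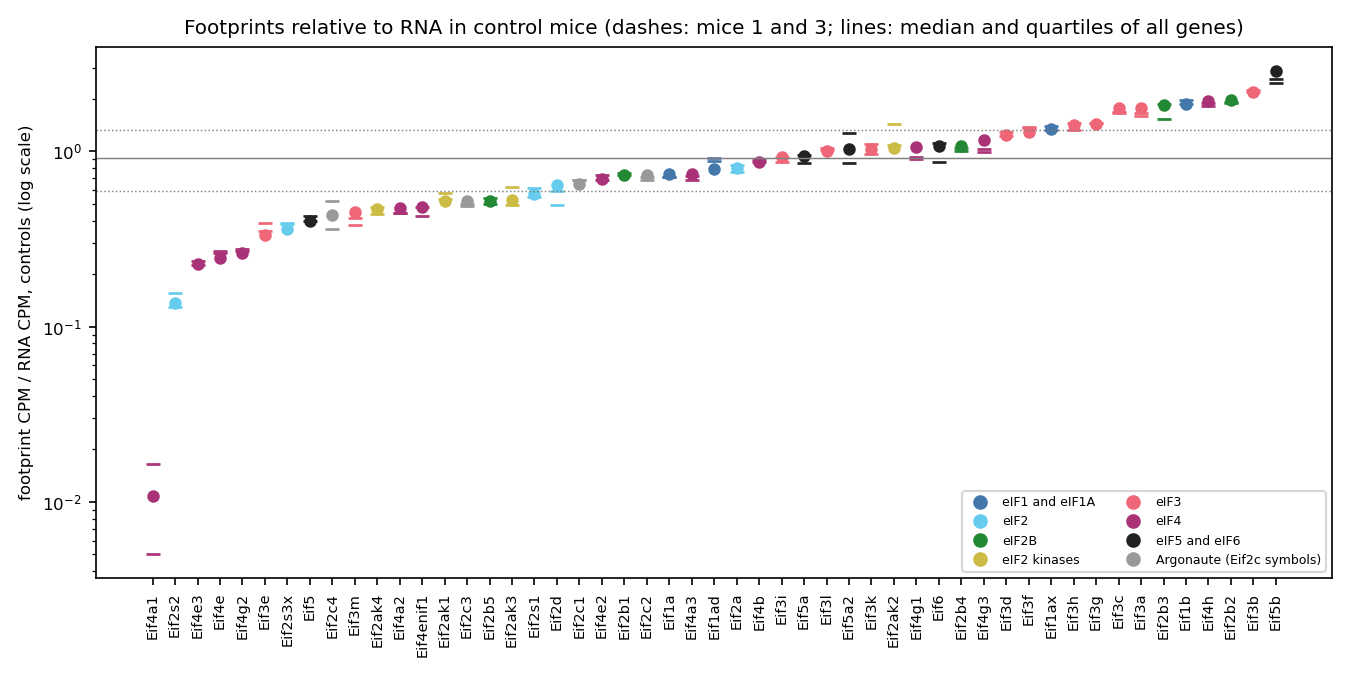
Footprint CPM divided by RNA CPM in control mice (log scale) for the 51 members tested, in rising order and coloured by complex. Points are ratios of the group means (4 RNA and 3 footprint libraries), dashes mice 1 and 3, and lines the median (solid) and quartiles (dotted) of all genes. Eif4a1, with only 5 to 21 footprint counts per library, lies far below the rest at 0.0108, and Eif5b lies highest at 2.87.

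Transcript starts were compared because mRNAs of the translation machinery often begin with a C followed by pyrimidines, the TOP motif through which mTORC1 and LARP1 act. The search took a C followed by at least 4 bases of C or T, beginning within 5 bases of a RefSeq start (GRCm38.p6), on the transcribed strand only. Of 44 members with a start in the table, 13 had such a run (29.5%), beside 21.2% of 27025 genes. Those 27025 are all genes with a start and were not limited to genes tested here, so the shares are not closely comparable. Of the 9 members with higher footprints that have a start, 4 had a run (Eif1ad, Eif2ak1, Eif3f and Eif3l). Of the 6 with lower footprints, 1 did (Eif4g1). The windows below hold 10 bases before the start and 20 from it, written 5′ to 3′ on the transcribed strand with each such run in capitals. They are shown for the strongest falls in footprints and for the longest runs among the members, Eif3f with 15 bases, Eif2s3x with 12 and Eif3l, which has 2 runs, with 9.
Eif5b (chr1:37998000-37998029, plus strand): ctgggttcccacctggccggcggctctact
Eif4g1 (chr16:20672717-20672746, plus strand): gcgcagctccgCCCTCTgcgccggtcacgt
Eif3a (chr19:60790674-60790703, minus strand): ctcgggcggcggcgctgccgccgcgaggga
Eif4g3 (chr4:137993445-137993474, plus strand): tccgagcggccgtcctgccggactgctgga
Eif5 (chr12:111538091-111538120, plus strand): cgacgtgcatgcgagccaatgacaagagaa
Eif3f (chr7:108934405-108934434, plus strand): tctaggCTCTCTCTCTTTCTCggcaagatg
Eif2s3x (chrX:94212632-94212661, minus strand): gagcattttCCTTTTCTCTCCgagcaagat
Eif3l (chr15:79075213-79075242, plus strand): gagttCTTCTTCCgCTCTCTCCCacgggct
The runs of Eif3f and Eif2s3x lie over or next to the start. Footprints of Eif3f rose, and those of Eif2s3x had a log2 fold change of -0.46 that was not called. A run is a description of the letters, and no run says only that these letters are not in this window.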

How the data were processed

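RNA and ribosome footprints were read as gene counts from 8 RNA and 6 footprint libraries of mouse cortex. Per the submitters' processing notes the authors used Bowtie2, STAR 2.5 and featureCounts of Subread 1.4.6 with the builds mm9 and mm10, and the deposited values are whole read counts per gene. The region counted, the annotation and the strand setting are not given in the sources used here, and 2849 genes have no footprint value. A second set of RNA columns labelled as exon counts served as an alternative. Genes passing filterByExpr with a minimum count of 10 were scaled by TMM and fitted with edgeR 4.0.16 quasi-likelihood tests (R 4.3.3), each assay alone and TE as the genotype-by-assay interaction over 14 libraries. P-values were adjusted by Benjamini-Hochberg over all genes tested, with calls under 0.05. Replicates are separately numbered mice, and mice 1 to 4 gave both assays, per the labels, so the number pairs their libraries. Deviations of the paired libraries from their group means correlated at -0.0133 to 0.0341 over 12145 genes. Those of libraries from different mice of a group correlated at -0.0156 to 0.0213. The ranges overlap, so this check does not show the pairing, which rests on the labels. Alternatives were plain library sizes, no filter, DESeq2 1.42.0, limma 3.58.1 voom, blocks for title prefix and mouse, and each mouse left out.

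The RNA libraries of KO mice 2, 4 and 7 nearly coincided, as did those of control mice 1 and 3, and an alternative summed each set. Footprint libraries within each group were also this close, at 1.15 to 1.42 in chi-square per degree of freedom, but were not summed. Footprint p-values therefore rest on a spread between mice close to counting error. Levels per coding length, planned at first, were not computed because no lengths were used here, so levels are not compared between genes except as footprint to RNA ratios. Every member was named by complex. Values of each mouse were given for members called in TE, for the 8 called members with the largest footprint change and for those called in RNA. Some further values, such as those of Eif2s2, Eif2s3x, Impact and Gcn1l1, were added after they were seen. The members, lists and tests were chosen with earlier results of these data known. RefSeq starts matched 44 of 55 members by symbol or older symbol, and the sequences are those of GRCm38.p6. Levels are CPM with the SD over mice, and fold changes carry the SE of the fit. At the lowest depth, a count of 0 allows up to 0.339 CPM of RNA and 0.727 CPM of footprints, for counting error only.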

Additional observations from a re-analysis of the deposited data

Results flagged for a closer look

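In RNA, KO mouse 5 stood far from the other 3 KO mice for Eif5b, at 81.6 CPM beside 52.1 to 55.1 CPM. The same mouse was distant for Eif3f, at 116 CPM beside 99 to 100.5 CPM. The gap to the nearest mouse was 0.9 and 0.912 of the group's range. These were 2 of 24 groups of 4 RNA libraries examined for the members given by mouse. Chance finds about 1 in 20 (1.2 expected) only if the groups are independent. Here different genes were read in the same libraries, so that number cannot judge the 2 found. Over all genes, the RNA library of mouse 5 differed from the other 3 KO libraries by 5.64 to 6.02 in chi-square per degree of freedom. Those 3 differed from each other by 1.18 to 1.32. Without mouse 5 the members called in RNA were 6 and in TE 13, beside 10.7% and 10.1% of all genes (7.51% and 7.44% with every mouse).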

How the results depend on the processing

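Leaving out each mouse in turn, RNA had 1 to 6 members called and a median of -0.015 to 0.0083, footprints 12 to 16 and 0.02 to 0.049, and TE 3 to 13 and 0.035 to 0.082. The percentage of all genes called moved as well. It was lowest for RNA without mouse 4 (2.74%) and highest without mouse 8 (13.2%). For footprints the extremes were 20.7% without mouse 4 and 23.4% without mouse 9. For TE they were 3.05% without mouse 2 and 10.1% without mouse 5 or mouse 8. In RNA, plain library sizes called 2 members (Eif3b and Eif4g2), DESeq2 3 (those and Eif4a2), the exon columns 3 (Eif3b, Eif2ak1 and Eif2c2), beside 7.76, 8.47 and 8.64% of all genes, and mice 1 to 4 alone 18, where the median was -0.069 and Eif5b reversed to -0.22. In footprints, 1 fit over all 14 libraries called 9 members (losing Eif1ad, Eif1b, Eif3l, Eif3m, Eif4a2, Eif4b and Eif5a2), DESeq2 11 (losing Eif1b, Eif3l, Eif3m, Eif4a2 and Eif5a2, with 15% of all genes called) and plain library sizes 22 (16 higher and 6 lower, beside 10 and 6), with a median of 0.087. Plain sizes moved the median of all genes to 0.066 in footprints and 0.056 in TE, where the members' median was 0.13 and the calls 5 higher and 4 lower. In TE, voom called 15 members, and RNA summed over near-coinciding libraries 5, with a median of 0.0202. The mouse as a replicate block over mice 1 to 4 called 12 members in TE (15.4% of all genes), as did those mice without it (14.6%), with 7 of the 8 kept, and changed no call beyond those given for Eif2c2 and Eif4g1 among the members described by mouse. The cause of these shifts was not tested. In the comparison where a member was called, its direction reversed in no alternative run, and footprint decreases of Eif5b, Eif4g1, Eif3a, Eif4g3 and Eif5 and increases of Eif2ak1, Eif3f, Eif3k and Eif4g2 stayed called in all of them. Depth limits Eif1, Eif4a1, Eif2c4, Eif4e3, Eif2ak2, Eif2s2 and Eif2s3x, with at most 64 footprint counts per library each.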
